A study of Homo sapiens with 3 samples.

Results

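The 10 genes described here belong to the insulin-like growth factor (IGF) and insulin axis: the growth factor IGF2, the receptors IGF1R and INSR, the receptor adaptor IRS2, and the IGF-binding proteins IGFBP1, IGFBP2, IGFBP3, IGFBP4, IGFBP6 and IGFBP7. Of them 9 are among the 19775 genes that the array names by a probe set of their own, and the 3 probe sets of IGF2 are shared with the read-through gene INS-IGF2. Every probe set annotated to one of the 10 genes was taken, 25 in all, of which 22 belong to a single gene. The members were chosen from earlier results of the same 3 arrays, in which the difference of IGFBP1 between the lines was already known, so their values are a description and carry no test.

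The arrays profiled MHCC97Low, a human hepatocellular carcinoma line with metastatic capacity, and a pair of sublines derived from it, one resistant to the crosslinking agent cisplatin (MHCC97L/CisR, CisR for short) and one resistant to the anthracycline doxorubicin (MHCC97L/DoxR, DoxR for short). All 3 lines were grown in DMEM with 10% FBS and were left untreated, so no drug is stated to have been present when RNA was taken. Each line was hybridised to 1 Affymetrix human U133 Plus 2.0 array. The labels give no drug dose or selection time and do not say whether a subline is a single clone. With 1 array per line there is no spread between cultures to set a difference against, no p-value was computed, and precision is limited by that number of arrays.

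Insulin, IGF1 and IGF2 act through the tyrosine kinase receptors INSR and IGF1R, which phosphorylate adaptors of the IRS family and so switch on PI3K, AKT and mTOR. AKT keeps FOXO factors out of the nucleus, and FOXO-driven liver genes such as IGFBP1 are therefore held down by insulin. Most IGF outside the cell is bound by the IGFBP proteins, which are made largely by the liver and which both store the ligands and limit their access to the receptor.

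Signals are MAS5 units on a linear scale, one value per probe set. Values at or under 76.9, the median of all values on the 3 arrays and called the floor here, have no usable order. A difference is one of log2 signal with such values raised to the floor, and counts of higher and lower genes take those that differ by at least 2-fold. A gene is represented by the probe set with the highest mean log2 signal. The arrays had median signals of 73.3 to 79.2, between 11879 and 12107 genes above the floor, and 3' to 5' signal ratios of 1.49 to 1.53 for ACTB and 0.954 to 1.02 for GAPDH. As a check of the labelled hepatoma origin, 12 of 15 hepatocyte markers were above the floor in the parental array, 12 in the CisR and 10 in the DoxR array, with APOA2 under it on all 3. In contrast 5 of 7 endothelial markers, including CDH5 and VWF, and 3 of 5 leukocyte markers, including PTPRC, were at or under the floor on all 3 arrays. The endothelial markers PECAM1, at 1052, 802 and 827 in the parental, CisR and DoxR arrays, and KDR, at 200, 285 and 190, were above it. So was the leukocyte marker ITGAM, at 241, 270 and 161, while CD3E was above it in the sublines only. Fibroblast and stellate markers are described further on, beside the hepatocyte markers.

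IGFBP1, the insulin-repressed binding protein of the liver, was lower in the CisR and higher in the DoxR subline. Probe set 205302_at read 2427 in the parental array, 608 in the CisR array and 6495 in the DoxR array. The parental value lay between those of the sublines. The signal was thus 3.99-fold lower than parental in the CisR array, a log2 difference of -2.00, and 2.68-fold higher in the DoxR array, a log2 difference of 1.42. Between the sublines it was 10.7-fold higher in the DoxR one, a comparison of the same CisR and DoxR values that adds no further measurement.

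**Figure D1:**
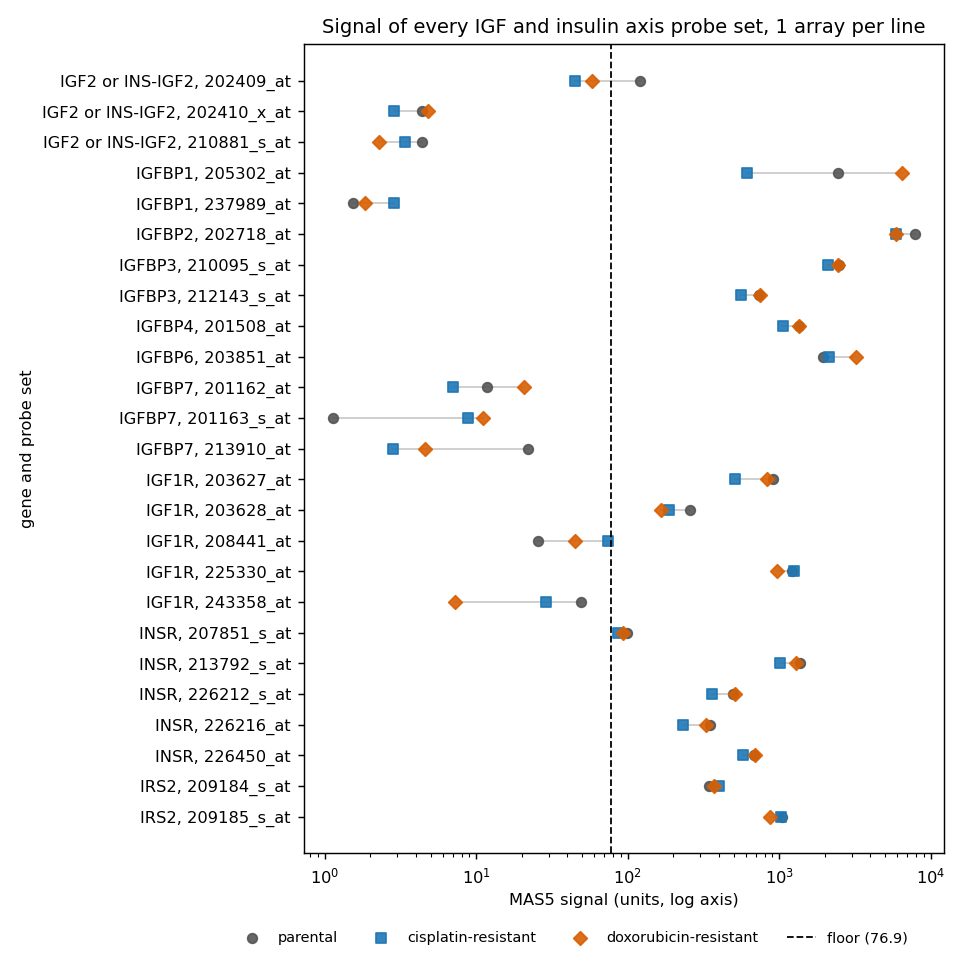
MAS5 signal (log axis) of each of the 25 probe sets on the parental, CisR and DoxR arrays, with 1 point per array and the floor of 76.9 as a dashed line. The bright IGFBP1 probe set runs from 608 to 6495, while each of the others with all 3 points above the floor lies within 2-fold of its parental point.

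IGFBP1 ranked 28th from the lowest of 12710 genes compared with parental in CisR, and 135th from the highest of 12605 in DoxR. Between the sublines it ranked 6th from the highest of 12604. These ranks describe the value that chose the gene. They rest on 1 probe set, since the other, 237989_at, read 1.55, 2.88 and 1.83 in the parental, CisR and DoxR arrays, all under the floor. With the median over both probe sets, one of them at the floor, the fold from parental was under 2-fold in both sublines, and the log2 difference in DoxR was 0.71.

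Of the 8 member genes that could be compared, IGFBP1 was the 1 that passed 2-fold in each comparison. Over all genes compared, 5.41% passed 2-fold from parental in CisR, 5.72% in DoxR and 6.36% from CisR to DoxR. By probe set the count was 1 of 16 in each comparison, against 4.73%, 4.94% and 5.58% of all probe sets compared. As the value of IGFBP1 helped to choose the group, nothing is read from these shares. The other 2 genes, IGF2 and IGFBP7, entered no gene comparison. The median log2 difference over the 8 genes was -0.30 in the CisR, -0.04 in the DoxR array and 0.29 between the sublines, against 0.02, 0.00 and -0.01 over all genes.

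**Figure D2:**
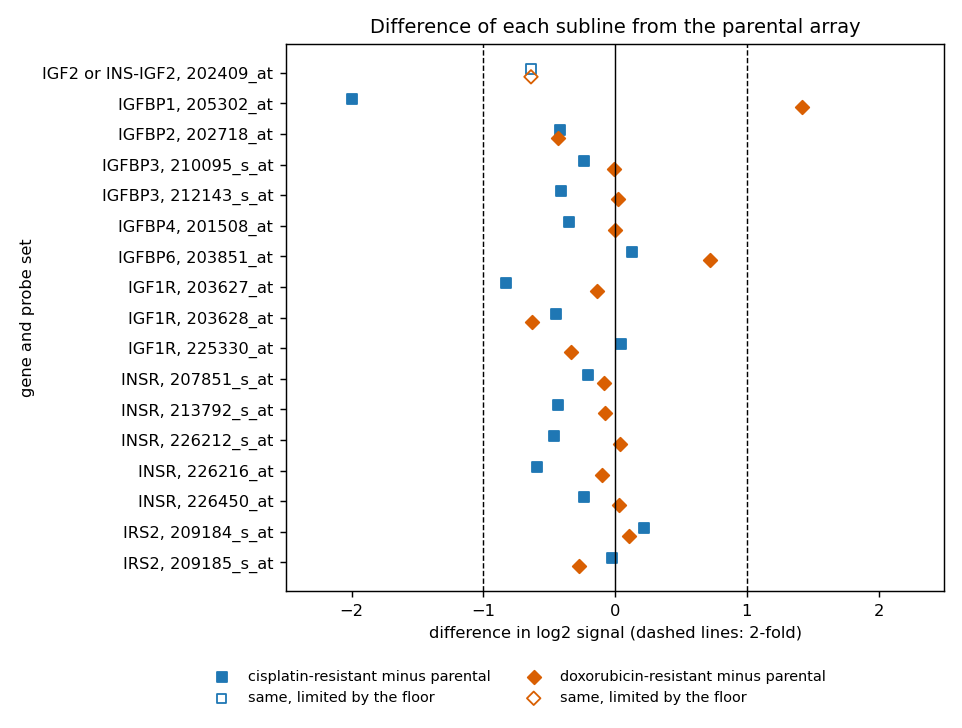
Difference in log2 signal from the parental array for the 17 probe sets with a value above the floor, with squares for the CisR and diamonds for the DoxR subline, open symbols for differences limited by the floor, and dashed lines at 2-fold. The IGFBP1 points lie at -2.00 and 1.42 and all other points lie between the dashed lines.

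The genes that most resembled IGFBP1 were found by the Euclidean distance of their log2 differences from parental, over the 3 arrays and among 11126 genes above the floor on all of them. Both differences use the same parental array. The nearest was ONECUT2, a liver transcription factor of the cut homeobox family, at a distance of 0.55, with signals of 321, 116 and 783 in the parental, CisR and DoxR arrays. ONECUT2 lies on chromosome 18, as does PHLPP1, described further on, whose 20 nearest compared genes had a median of -0.89 in the CisR array. Whether such a shift has a part in the ONECUT2 difference was not tested. SERPINA6, the corticosteroid-binding globulin secreted by hepatocytes, followed at 0.57 with 331, 84.0 and 597. The chemokine CCL20 lay at 0.74, the RAC activator ELMO1 at 0.75 and the cytochrome CYP2B6 at 0.91. In all 5 the order of the arrays was the same, with the CisR value lowest and the DoxR value highest, as their choice by distance implies.

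**Figure D3:**
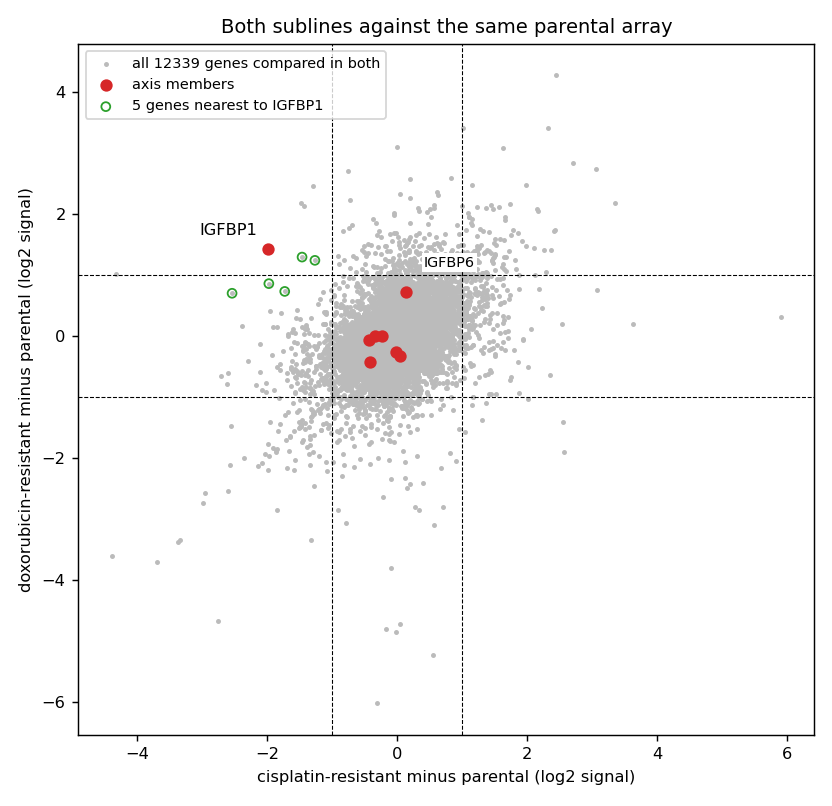
Log2 difference from the parental array in the CisR (x) and DoxR subline (y) for the 12339 genes compared in both, with the axis members in red, the 5 genes nearest to IGFBP1 ringed and dashed lines at 2-fold. Both axes share the parental array. IGFBP1 lies in the upper left at -2.00 and 1.42, and the other 7 members lie inside the central square.

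Other products of hepatocytes also differed between the lines. Of 14 hepatocyte markers compared, 9 were lower and 1 higher in the CisR array, against 5.41% of all genes past 2-fold, with a median log2 difference of -1.74. Of 13 compared in the DoxR array, 4 were lower and 2 higher, against 5.72% of all genes, with a median of -0.42. Albumin (ALB), the main plasma protein, was at least 20.1-fold lower in the CisR array and 2.02-fold higher in the DoxR array by its representing probe set. The size depended on the probe set, with log2 differences of -4.33 to -1.40 in CisR and of 0.18 to 1.01 in DoxR over the 3 compared. The iron carrier TF was lower in both sublines, by 21.0-fold and 12.2-fold, and the smallest log2 difference of its 3 compared probe sets was -1.36 in each. Other markers also did not share the directions of ALB. The apolipoprotein APOB, under the floor in the parental array, was at least 5.01-fold higher in the CisR and 10.6-fold higher in the DoxR array. The fibrinogen chain FGB read 1977, 291 and 49.6 in the parental, CisR and DoxR arrays, lower in both sublines. The summed marker signal, most of it from the keratins KRT8 and KRT18, was 68947, 62595 and 69761 in the parental, CisR and DoxR arrays. The summed signal of 8 fibroblast and stellate markers was 829, 3479 and 1613, most of it in the sublines from LUM, a proteoglycan of the matrix, while COL1A2, COL3A1 and PDGFRB were under the floor on all arrays. Of these 8 markers 2 were above the floor in the parental, 5 in the CisR and 2 in the DoxR array. The 5 compared in CisR were all above parental there, against 47.8% of all genes below 0. Among them DCN, THY1 and ACTA2 were under the floor in the parental array and just above it in CisR, at 86.0, 82.5 and 91.7. These could therefore only come out above parental. LUM differed by 3.35 in log2 signal by its representing probe set and by 0.07 by the other. The collagen COL1A1 read 309, 511 and 242. In RNA from a whole culture, fewer cells that make a product and less RNA per cell cannot be told apart, and the part of these marker differences in that of IGFBP1 was not tested.

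Position along the chromosome gave no shift of the size seen in IGFBP1. The gene lies on chromosome 7 directly beside IGFBP3, and the 20 compared genes nearest to it had a median log2 difference of -0.06 in the CisR and -0.04 in the DoxR array. With that median subtracted IGFBP1 was at -1.94 and 1.46. IGFBP3 differed by -0.24 and -0.01.

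**Figure D4:**
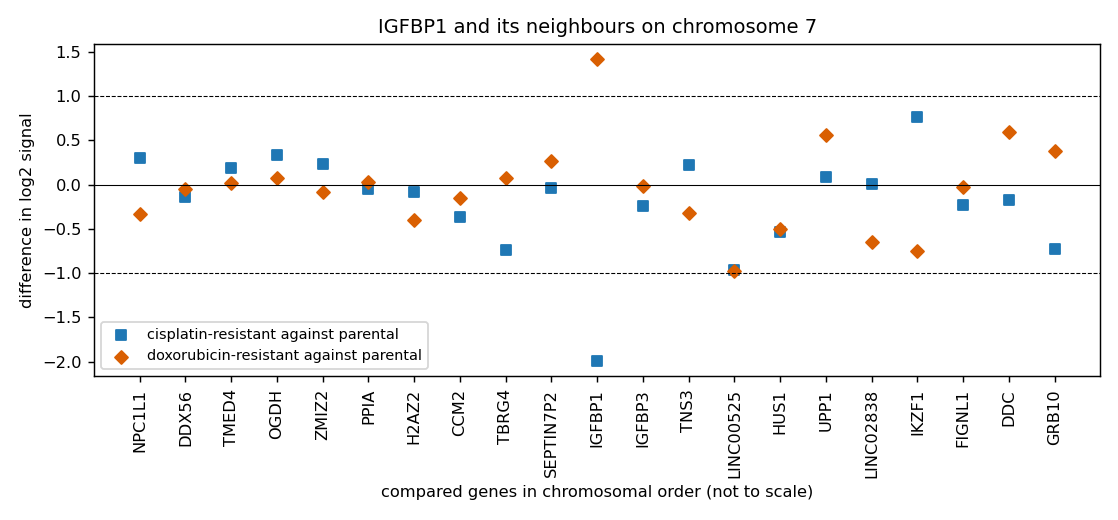
Log2 difference from the parental array for IGFBP1 and the 10 compared genes on each side along chromosome 7, in order and not to scale, with dashed lines at 2-fold. Each neighbour lies inside the dashed lines in both sublines, while IGFBP1 lies at -2.00 and 1.42.

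The other binding proteins among the 10 genes stayed within 2-fold where they could be compared. IGFBP3, the main carrier of IGF in serum, read 2466, 2089 and 2449 in the parental, CisR and DoxR arrays by probe set 210095_s_at, and 739, 557 and 752 by 212143_s_at. Both probe sets put the CisR array lowest, by 1.18-fold and 1.33-fold, and the other arrays level. IGFBP4, which inhibits IGF action until it is cleaved by the protease PAPPA, showed the same order with 1358, 1065 and 1357. Its difference of -0.00 in the DoxR array stood beside a median of -0.46 over its 20 nearest compared genes on chromosome 17.

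IGFBP2, a binding protein abundant in fetal liver and many tumours, was lower in both sublines by a similar amount. Its signals were 7914 in the parental, 5929 in the CisR and 5857 in the DoxR array. The parental array was highest, by 1.33-fold and 1.35-fold, and the sublines differed from each other by 1.01-fold. Both differences from parental rest on the same parental value. Of all genes compared, 29.7% differed by more in the CisR and 28.2% in the DoxR array. IGFBP6, which prefers IGF2 to IGF1, read 1951, 2133 and 3210. It was 1.65-fold higher than parental in the DoxR array, the largest difference of a member gene in that comparison after IGFBP1, and 0.59 higher in log2 signal than in the CisR array. Across all genes compared with parental there, 12.2% differed by more.

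IGFBP7, a related secreted protein of the extracellular matrix with low affinity for IGF, was not detected above the floor. Its 3 probe sets read between 1.13 and 21.9 on all 3 arrays, so no order of the lines can be given.

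IGF2 has no probe set of its own here. Of the 3 probe sets shared with INS-IGF2, 202409_at read 120 in the parental array and 44.9 and 58.3 in the CisR and DoxR arrays. It was above the floor in the parental array and under it in both sublines, at least 1.56-fold lower in each. The other shared probe sets read 2.27 to 4.78 on all arrays. These values cannot be assigned to either gene.

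INSR, the insulin receptor, was lower in the CisR array by all 5 of its probe sets, which measure the same transcripts and are not replicates. The representing probe set 213792_s_at read 1366, 1009 and 1294 in the parental, CisR and DoxR arrays. The others gave 496, 360 and 508 for 226212_s_at, 349, 231 and 326 for 226216_at, 681, 579 and 693 for 226450_at and 98.9, 85.7 and 93.2 for 207851_s_at. In each the CisR value was the lowest, whereas the parental and DoxR values lay close together. Log2 differences ran from -0.59 to -0.21 in the CisR array and from -0.10 to 0.03 in the DoxR array. None reached 2-fold, and 27.7% of all genes compared differed by more than the representing probe set's 1.35-fold in the CisR array. The 20 nearest compared genes of INSR had a median of 0.11 there.

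IGF1R, the receptor for IGF1 and IGF2, gave values that depended on the probe set. Its brightest probe set, 225330_at, read 1221, 1261 and 969, level between the parental and CisR arrays and lowest in the DoxR array. Probe set 203627_at read 912, 512 and 830, lowest in the CisR array by 1.78-fold, and 203628_at read 257, 188 and 166, highest in the parental array. Another 2 probe sets were under the floor on all arrays. The DoxR value was below the parental one in all 3 measured probe sets, with log2 differences of -0.63 to -0.14, while those of the CisR array ran from -0.83 to 0.05.

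IRS2, the adaptor that carries much of the insulin signal in liver, differed little between the lines. Probe set 209185_s_at read 1049, 1033 and 868 in the parental, CisR and DoxR arrays, and 209184_s_at read 346, 402 and 371. The first put the DoxR array lowest by 1.21-fold, and the second put the parental array lowest. IRS2 is, like IGFBP1, a FOXO target repressed by insulin, and its log2 differences by the first were -0.02 and -0.27.

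Promoter windows of 300 bases, from 250 before to 50 after the start, were taken from the RefSeq-derived table of build GRCh38.p14, which matched 7 of the 10 members. IGF2, IGFBP1 and IGFBP7 were not matched. The windows were searched on both strands for 3 short motifs: CAAAACA, the core of the insulin response element, GTAAACA, a FOXO motif, and TGATGNAAT, a composite motif bound by ATF4. The motifs were present in 4.92%, 3.42% and 0.991% of all 35116 windows. IRS2 held the first (chr13:109786577-109786663, minus strand) and IGFBP6 the second (chr12:53097441-53097527, plus strand), and the other 5 windows held none. Both stretches are shown 5' to 3' along the gene with the match in capitals, because these are the members whose window carries an insulin-linked motif. The IRS2 match is on the opposite strand.
IRS2: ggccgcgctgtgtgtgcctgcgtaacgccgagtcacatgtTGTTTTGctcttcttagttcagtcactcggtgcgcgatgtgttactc
IGFBP6: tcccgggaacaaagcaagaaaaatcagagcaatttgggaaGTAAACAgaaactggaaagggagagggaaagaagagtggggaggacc
A match of these letters describes the window only, and the arrays do not measure binding to it.

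Beyond the 10 members, 95 other genes of the axis were listed by role, and 89 of them had an array probe set of their own symbol, with 77 that could be compared with parental in each subline. The others are not used here. In the CisR array 1 was higher and 4 lower, together 6.49% against 5.41% of all genes, with a median log2 difference of -0.19 against 0.02 over all genes, and 56 of 77 were below 0 against 47.8% of all genes. In the DoxR array 2 were higher and 2 lower, together 5.19% against 5.72% of all genes, with a median of 0.02 against 0.00, and 36 of 77 were below 0 against 49.6%. Between the sublines 5 were higher in the DoxR one and 2 lower, together 9.09% against 6.36%.

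**Figure D5:**
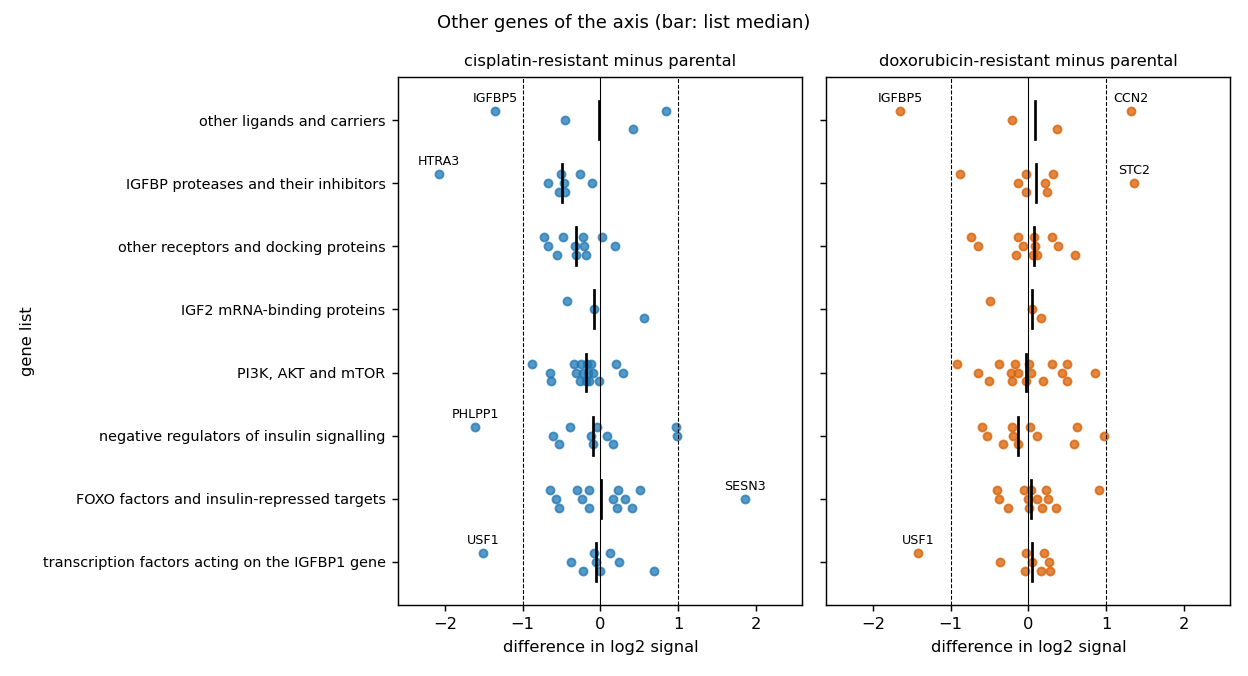
Log2 difference from the parental array of the other axis genes by list, CisR on the left and DoxR on the right, with 1 point per gene, a bar at each list's median and dashed lines at 2-fold. The named points lie past 2-fold, and most medians on the left lie below 0.

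Among the other ligands and carriers, IGFBP5, a matrix-associated binding protein and the next compared gene to IGFBP2 on chromosome 2, was lower in both sublines. It read 1517 in the parental, 595 in the CisR and 483 in the DoxR array by its representing probe set. That is 2.55-fold and 3.14-fold lower. The 3 that stayed above the floor gave log2 differences of -1.48 to -1.28 and of -2.08 to -1.16, so the parental array was highest in each, and the other 3 lay at or near the floor. CCN2, a matricellular protein once classed with the IGF-binding proteins, read 1197, 2147 and 2989. Its log2 difference was 1.32 in the DoxR array, past 2-fold, and 0.84 in the CisR array, within it. IGF1, INS and IGFALS, the acid-labile subunit of the serum IGF complex, were under the floor on all arrays.

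All 8 compared IGFBP proteases and their inhibitors were lower in the CisR array, with a median of -0.49, against 47.8% of all genes below 0. Of them 1 passed 2-fold, against 5.41% of all genes. STC1, at 92.0 in the parental and 51.0 in the CisR array, was limited by the floor. PAPPA2, at 126 and 78.7, came near it in the CisR array. The protease PAPPA was under the floor on all arrays by all 11 of its probe sets. HTRA3, a secreted serine protease of the HTRA family, read 635, 150 and 344. It was 4.23-fold lower in the CisR array and, by its second probe set, 3.02-fold lower. In the DoxR array the probe sets fell on either side of 2-fold, at log2 differences of -0.89 and -1.37. STC2, a stanniocalcin that inhibits PAPPA, read 371, 271 and 954 and was 2.57-fold higher in the DoxR array. Its second probe set gave 387, 224 and 753, in the same order of the arrays. Between the sublines STC2 was 3.51-fold and HTRA3 2.29-fold higher in the DoxR one, but the second HTRA3 probe set, at 125 and 146, differed by 1.16-fold. The list's median in the DoxR array was 0.09.

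None of the receptors and docking proteins passed 2-fold from parental, with medians of -0.32 over 11 genes and 0.07 over 12. GRB10, an adaptor that restrains INSR and IGF1R signalling, read 5545, 3358 and 7217 and was 2.15-fold higher in the DoxR than in the CisR array. Between the sublines its other 3 probe sets gave 0.15 to 0.60, so the fold rests on the brightest. IGF2R, which clears IGF2 from the surface, read 6660, 4507 and 4267. The 3 IGF2 mRNA-binding proteins had medians of -0.08 and 0.05, and IGF2BP1 was 2.08-fold lower in the DoxR than in the CisR array.

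The kinases and subunits of PI3K, AKT and mTOR lay within 2-fold in all 3 comparisons by their representing probe sets. A dimmer probe set of TSC2, a brake on mTOR complex 1, read 119, 166 and 81.5 and was 2.03-fold lower in DoxR than in CisR, while its representing one differed by 1.00-fold. Of 17 compared, 15 were below parental in the CisR array, against 47.8% of all genes, with a median of -0.18. In the DoxR array 9 were below it, near the share of 49.6% over all genes, with a median of -0.03. RPTOR, the scaffold of mTOR complex 1, read 372, 202 and 261, and PIK3R1, the regulatory subunit of PI3K, read 456, 294 and 241. DEPTOR, an mTOR inhibitor, read 324, 304 and 588.

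Among negative regulators the medians were -0.10 and -0.13 over 11 genes. PHLPP1, a phosphatase of AKT, read 462, 151 and 497 and was 3.05-fold lower in the CisR array. Its nearest 20 compared genes, on chromosome 18, had a median of -0.89 there, and with that subtracted its log2 difference was -0.72. TRIB3, a stress-induced pseudokinase that binds AKT, read 9269, 7042 and 18127 and was 2.57-fold higher in the DoxR than in the CisR array. Its difference of 0.97 from parental in the DoxR array fell short of 2-fold, and that of its dimmer probe set, at 812, 465 and 1632, just passed it at 1.01. SOCS2, at 214, 422 and 320, and ENPP1, at 174, 341 and 269, also fell short of 2-fold. They were 1.98-fold and 1.96-fold higher than parental in the CisR array, where 7 of the 11 genes were below it. By probe set their log2 differences there ran from 0.31 to 0.98 and from 0.54 to 0.97.

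FOXO factors and other insulin-repressed genes had medians of 0.01 over 14 genes and 0.03 over 13. FOXO1 read 271, 305 and 322. SESN3, a sestrin induced by FOXO, was at least 3.63-fold higher in the CisR array, at 279 against values under the floor in the other arrays, by 1 of its 7 probe sets, and the other 6 were under the floor on all arrays. FBXO32, a ubiquitin ligase subunit induced by FOXO, was lower in CisR by all 3 of its compared probe sets, within 2-fold by the representing one, at 749, 504 and 626, and 4.86-fold by another, at 588, 121 and 536. The gluconeogenic genes PCK1 and G6PC1 were under the floor on all arrays. Among transcription factors known to act on the IGFBP1 gene, medians were -0.05 and 0.04 over 9 genes. USF1, an E-box factor with 1 probe set, read 220, 64.4 and 82.1 and was lower in both sublines. The fold was at least 2.85 in the CisR array, where it was under the floor, and 2.67 in the DoxR array, where it was near the floor. FOXA2 read 1417, 1675 and 1627, and ATF4 read 13667, 11711 and 16556.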

How the data were processed

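The values analysed are intensities (MAS5 signal per probe set, linear scale) as the authors deposited them; the submitters' processing notes name MAS5. The software version, detection calls and scaling target are not given in the sources used here. Each array's mean, trimmed by 2% at both ends, came to 500.1. MAS5 subtracts mismatch signal, which makes low values noisy. Of 54675 probe sets, 41091 had 1 gene symbol in the platform annotation, updated through Entrez identifiers in RefSeq (99.9% matched). A comparison needed 1 of its 2 values above the floor of 76.9. Differences of log2 signal were computed with Python 3.11.15, numpy 2.4.6 and pandas 2.3.3, and the steps were tested on simulated arrays. Across genes, log2 differences from parental had an SD (scaled median absolute deviation) of 0.37 in both sublines, and of 0.28 among the brightest genes.

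The members and gene lists were chosen with earlier results of these data known. Named genes are all members, list genes past 2-fold from parental (up to 4 a list), and the 5 genes nearest to IGFBP1. TRIB3, GRB10, IGF2BP1, STC2's second probe set, RPTOR, PIK3R1, DEPTOR, IGF2R, FOXO1, FOXA2, ATF4, TSC2 and FBXO32 were named after their values were seen. So were other list genes not past 2-fold from parental by their representing probe sets. The same holds for the markers ALB, TF, APOB, FGB, LUM, COL1A1, DCN, THY1, ACTA2, PECAM1, KDR, ITGAM and CD3E. The alternatives changed the floor, the scaling, the probe set of a gene, the fold and the neighbouring genes.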

Additional observations from a re-analysis of the deposited data

Results flagged for a closer look

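IGFBP1 is listed for a closer look because it was past 2-fold from parental in opposite directions in the 2 sublines, at log2 differences of -2.00 in the CisR and 1.42 in the DoxR array. The sublines differed from each other by 3.42. With 1 array per line this difference was not tested.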

How the results depend on the processing

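IGFBP1 kept its direction under every alternative tried in all 3 comparisons. It ranged from -2.02 to -0.998 in the CisR array, from 0.71 to 1.46 in the DoxR array and from 1.71 to 3.43 between the sublines, and it fell short of 2-fold only against parental with the median over probe sets, which leaves 0 member genes past 2-fold in each of those 2 comparisons. Quantile normalization, centring on the median and subtracting neighbouring genes left each count of members at 1. At 1.5-fold, member genes past it numbered 2 in the DoxR array and 2 between the sublines (IGFBP1 and IGFBP6), and member probe sets 3 in each comparison. With the floor at the 25th percentile, 2 member probe sets passed 2-fold in each subline against parental, and with no floor (log2 of signal plus 16) 3 and 2 did, the added ones all being under the floor used in the report. Counts of other axis genes moved more, in the order CisR, DoxR and between the sublines. At 1.5-fold they were 17, 15 and 20. With the floor at the 75th percentile they were 1 and 3 in the first and last, with the median over probe sets 2 and 2, and with the floor at the 25th percentile 7 in the DoxR array. The higher floor compares fewer genes. The 470 recomputed values also cover differences that were within 2-fold in the report, so they are no denominator for losses. Among differences past 2-fold none changed sign. On recomputing, 18 of their values fell short of 2-fold, including those of IGFBP5, PHLPP1 and SESN3 with the median over probe sets. No paired analysis was possible because each line has 1 array.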
